A study of Mus musculus with 4 samples.

Results

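Cachd1, Fam171b, Ccdc136 and Ptpn13 are 4 little-studied genes that were chosen by their measured log2 signals, which were higher on both arrays of mouse embryonic stem (ES) cells kept without leukemia inhibitory factor (LIF) than on both arrays of cells kept with it. Every probe set annotated with exactly 1 gene symbol, that symbol being one of the 4, was taken, which gave 7 probe sets of 34945 and 4 genes of 18193. Cachd1, Fam171b and Ptpn13 had 2 probe sets each and Ccdc136 had 1. Since the selection used this contrast, the values of the 4 genes are given as a description, without a test.

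The RNA came from CGR8 cells, an established mouse ES cell line grown on gelatin in serum-replacement medium. The 2 arrays with LIF held cells in medium with LIF at 1000 U/ml, and the 2 arrays without LIF held cells whose medium had no LIF for 2 days. All 4 arrays therefore shared the line, the coating and the medium apart from LIF. The arrays of each group carried the numbers 1 and 2, and nothing in the labels says that they came from separate cultures, so the spread between them may be technical. Signals were linear MAS5 intensities, a summary of all probes of a probe set on 1 array in arbitrary units.

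LIF is a cytokine that activates JAK kinases and the transcription factor Stat3 and is added to ES cell cultures to keep the cells undifferentiated. The 4 genes encode unrelated kinds of protein. Cachd1 encodes a membrane protein with cache and von Willebrand factor A domains, related to the auxiliary subunits of voltage-gated calcium channels, and it has been described both as a modulator of T-type calcium channels and as a partner of Frizzled receptors of the WNT pathway. Fam171b encodes a single-pass membrane protein that is prominent in brain. Ccdc136 encodes a coiled-coil protein known from the acrosome, the secretory cap of sperm. Ptpn13, also called PTP-BL, encodes a large cytoplasmic tyrosine phosphatase with a FERM domain and several PDZ domains, which bind the tails of membrane proteins such as ephrin-B ligands.

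RefSeq start sites (assembly GRCm38.p6) were matched for 3 of the 4 genes. The 250 bases before them are shown because each member was selected for a higher signal without LIF. Each sequence is given 5' to 3' on the gene's strand, all of them the plus strand. Capitals mark matches, on either strand, to 5 motifs that were searched, namely TTCNNNGAA of STAT factors, CTTTGA of TCF and LEF factors, ATGCNAAT of POU factors, CCAAT and the GC box GGGCGG. Ccdc136 had 4 listed starts, of which 1 of the 3 clustered upstream starts and the downstream start are shown.
Cachd1, chr4:100776429-100776678: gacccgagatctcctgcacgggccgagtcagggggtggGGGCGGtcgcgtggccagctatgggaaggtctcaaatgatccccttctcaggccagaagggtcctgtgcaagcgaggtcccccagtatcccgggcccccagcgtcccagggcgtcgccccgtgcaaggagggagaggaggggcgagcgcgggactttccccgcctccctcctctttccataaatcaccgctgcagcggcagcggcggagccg
Ccdc136 upstream start, chr6:29396334-29396583: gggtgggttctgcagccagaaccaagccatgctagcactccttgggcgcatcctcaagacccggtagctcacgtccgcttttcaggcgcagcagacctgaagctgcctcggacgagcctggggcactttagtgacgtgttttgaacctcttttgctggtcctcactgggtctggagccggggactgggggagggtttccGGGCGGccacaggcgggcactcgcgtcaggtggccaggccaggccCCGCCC
Ccdc136 downstream start, chr6:29398676-29398925: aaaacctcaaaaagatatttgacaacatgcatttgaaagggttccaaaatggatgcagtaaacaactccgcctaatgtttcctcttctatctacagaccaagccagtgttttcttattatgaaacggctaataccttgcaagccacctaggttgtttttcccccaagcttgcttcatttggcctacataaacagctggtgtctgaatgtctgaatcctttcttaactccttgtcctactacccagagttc
Ptpn13, chr5:103424942-103425191: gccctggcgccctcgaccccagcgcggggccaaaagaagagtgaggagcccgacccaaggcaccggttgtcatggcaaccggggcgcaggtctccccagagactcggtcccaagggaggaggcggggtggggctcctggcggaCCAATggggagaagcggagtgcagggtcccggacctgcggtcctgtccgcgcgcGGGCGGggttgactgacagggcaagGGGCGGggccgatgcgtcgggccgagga
The Cachd1 window held 1 GC box, the upstream Ccdc136 window shown 2 and the other 2 clustered upstream windows 1 each, and the Ptpn13 window 2 beside 1 CCAAT match. The STAT, TCF and LEF, and POU letters were found in none of these 4 windows, which says only that those letters are not there. Of 32841 windows of the same length over all RefSeq starts, 7.02% held the STAT letters, 13.8% those of TCF and LEF, 2.86% those of POU factors, 33.9% CCAAT and 32.7% the GC box. The share of G and C was 68.8% for Cachd1, 65.2% for the upstream Ccdc136 start and 72.4% for Ptpn13, against a median of 52.4% over all windows, and 40.8% for the downstream Ccdc136 start. The same windows held 21, 15, 24 and 2 CpG dinucleotides, against a median of 6.

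As a check of the samples, the markers of undifferentiated ES cells were bright. Pou5f1 read 7211.7 to 10631.6 and Sox2 10882.6 to 16846.6 over the 4 arrays. Esrrb, a transcription factor gene of undifferentiated cells, fell from 2762.8 and 2645.7 to 455.3 and 690.0 (log2 change -2.27, limma adjusted p = 0.031). It passed under 9 of 13 alternatives, with adjusted p from 6.5e-05 to 0.29, and its adjusted p was 0.15 without array 2 with LIF. The other 9 markers did not pass, with -1.41 for Nanog, -1.38 for Zfp42, -1.48 for Tdgf1 and 0.87 for Lin28a. All 10 ES cell markers lay above the low-signal filter at 22.9, and their summed signal was 110424 to 130491 with LIF and 66362 to 94171 without LIF. Of the primitive endoderm list, 12 of 12 were measured, with sums of 5569 to 13880 and 6404 to 22150.5. The higher sum of each group was on the array numbered 2. Neuroectoderm (9 of 10 measured) summed to 1450.5 to 2354 and 1660 to 3420.5, mesoderm (8 of 8) to 477 to 537 and 762 to 763, fibroblast (10 of 10) to 5011 to 6396 and 6342 to 6541, and germ cell genes (6 of 6) to 6674 to 10126.5 and 7163 to 9670.0. No marker stayed below the filter on all 4 arrays. The ES cell sum was lower and the mesoderm sum higher on both arrays without LIF, and their part in the change of the 4 members was not tested. Of the 8 mesoderm genes, 4 were higher with the groups apart and 1 lower, against 27.3% and 15.2% of all tested genes. The brightest, Eomes, read 161.1 and 166.8 with LIF, against 264.0 and 359.9 without LIF, and the lower one was Hand1 (-0.31). In RNA from whole cultures, fewer cells of a type and less RNA per cell cannot be told apart. The arrays numbered 2 also had a higher ratio of 3' to 5' signal of the Actb controls, which reflects RNA integrity. That ratio was 1.77 to 1.83, against 1.32 to 1.44 on the arrays numbered 1. The 18S control read 260.5 and 307.2 on the arrays numbered 1, against 1933 and 1053.8 on those numbered 2. Median signals were 69.9 and 59.6 with LIF, against 95.5 and 65.5 without LIF.

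Cachd1 read about 4 times as high without LIF on each of its probe sets. The brighter one read 525.2 and 400.8 on the arrays with LIF, against 1970.3 and 1644.6 on those without LIF. The dimmer one read 149.3 and 85.3 with LIF, against 531.7 and 338.3 without LIF. On both probe sets the arrays without LIF lay above both arrays with LIF, and array 2 read lower than array 1 in each group. The log2 change was 1.97 (SE 0.23, n = 2 per group; 3.92-fold) for the brighter and 1.91 (SE 0.52; 3.76-fold) for the dimmer probe set. Compared only between arrays of the same number, the brighter probe set differed by 1.91 and 2.04 on the log2 scale, so that this gene had the closest agreement between numbers among the brightest probe sets of the 4.

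Of the brightest probe sets, that of Fam171b had the steadiest signal with LIF. This probe set read 254.9 and 247.8 with LIF, against 1160.1 and 898.1 without LIF. The dimmer probe set of the gene read 52.2 and 57.9 with LIF, against 272.6 and 201.6 without LIF. The groups were apart on both, and the lower array without LIF read 3.52 and 3.48 times the higher array with LIF. The log2 changes were 2.02 (SE 0.19, n = 2 per group; 4.06-fold) and 2.09 (SE 0.23; 4.26-fold). For both probe sets the difference was larger between the arrays numbered 1, at 2.19 and 2.38, than between those numbered 2, at 1.86 and 1.80.

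Ccdc136 was measured by 1 probe set. It read 304.2 and 227.0 with LIF, against 969.0 and 1046.1 without LIF. The groups did not overlap, and the lower array without LIF read 3.19 times the higher array with LIF. The log2 change was 1.94 (SE 0.22, n = 2 per group; 3.83-fold), with 1.67 between the arrays numbered 1 and 2.20 between those numbered 2. No other probe set with this symbol alone was there to compare it with.

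Ptpn13 had the largest change of the 4, but only on its brighter probe set. That probe set read 423.5 and 264.9 with LIF, against 1530.4 and 1536.8 without LIF, a log2 change of 2.19 (SE 0.34, n = 2 per group; 4.58-fold). The spread lay with the cells kept with LIF, where array 2 read 0.626 times array 1. The dimmer probe set read 138.1 and 77.9 with LIF, against 316.0 and 109.0 without LIF. Here the groups overlapped, since array 2 without LIF lay below array 1 with LIF, and the log2 change was 0.84 (SE 0.87; 1.79-fold). Both names end in _a_at, which the manufacturer gives to probe sets that match several transcripts of one gene. Averaged over both probe sets, the log2 change of Ptpn13 was 1.52.

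**Figure D1:**
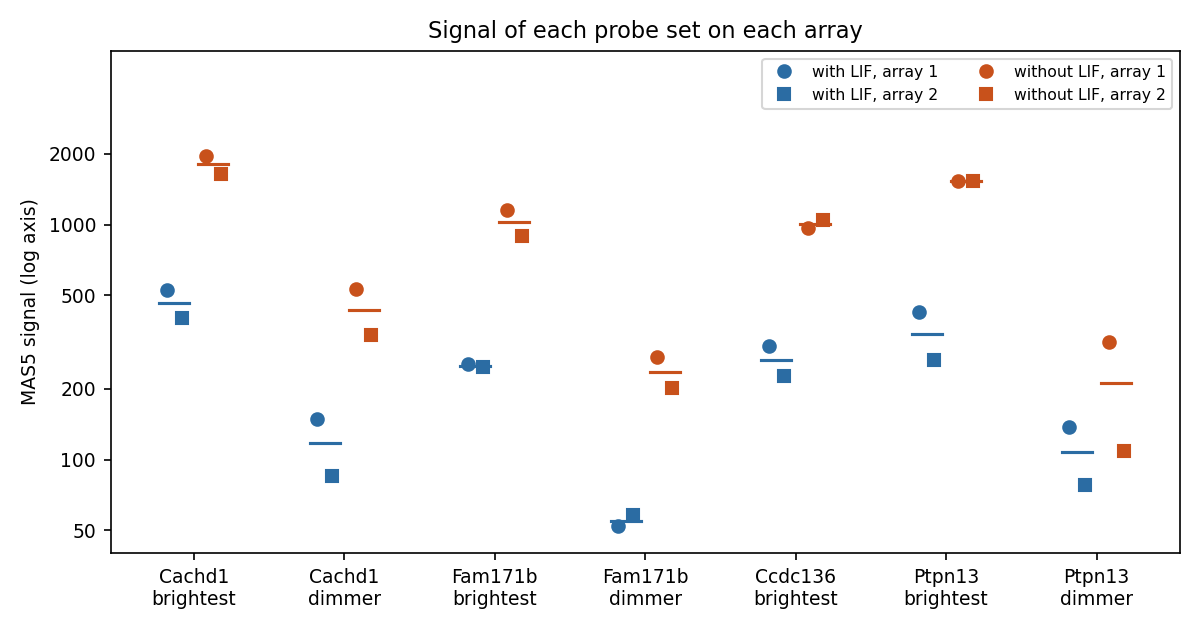
MAS5 signal (log axis) of the 7 probe sets on the 4 arrays, with the mean of each group as a bar (n = 2). For 6 probe sets both arrays without LIF lie above both arrays with LIF, and for the dimmer Ptpn13 probe set the array at 109.0 without LIF lies below the array at 138.1 with LIF.

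Set side by side, the changes of the brightest probe sets lay within a narrow range, from 1.94 to 2.19 on the log2 scale, and every comparison within a number came to at least 1.67. They were the 126th (Ptpn13), 172nd (Fam171b), 187th (Cachd1) and 199th (Ccdc136) largest of 14445 genes tested. The selection fixed this side of the distribution. For comparison, 27.3% of all tested genes had both arrays without LIF above both arrays with LIF, 7.36% did so with a change of at least 2-fold, and 3.8% were at least 2-fold higher within each number. Under quantile normalization and under a common median the 4 genes stayed at least 2-fold higher with the groups apart. Leaving out an array could not alter this. On the brightest probe sets the lowest array without LIF read 3.13 to 3.61 times the highest array with LIF. As the selection used these values, they describe the 4 genes and do not test them. With a common median per array, which moved the median change of all tested genes from 0.09 to -0.20, the 4 changes were 1.68 for Cachd1, 1.73 for Fam171b, 1.64 for Ccdc136 and 1.90 for Ptpn13.

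**Figure D2:**
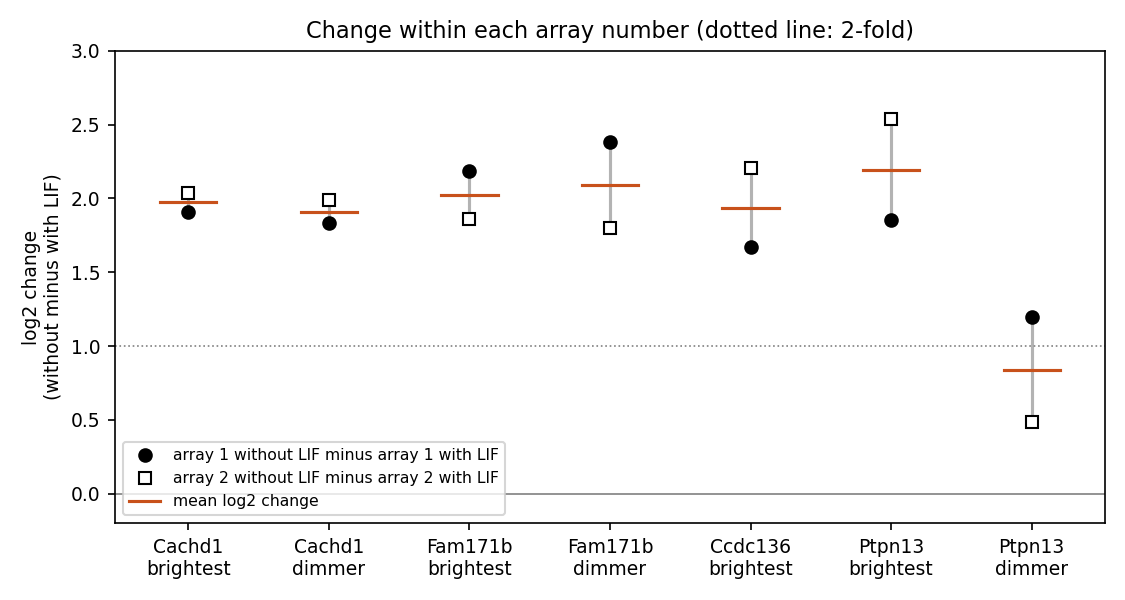
Log2 change without minus with LIF for the 7 probe sets, between the arrays numbered 1 (filled circles), between those numbered 2 (open squares) and as the mean (bars). Fam171b differs more between the arrays numbered 1 and Ccdc136 and the brighter Ptpn13 probe set more between those numbered 2, while the dimmer Ptpn13 probe set has 1.19 and 0.48.

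The genes whose 4 signals moved most like each member, after centring each gene on its own mean, were named by Euclidean distance over the 4 arrays. For Cachd1 these were Dmkn (dermokine), Cyria and the zinc finger gene Bcl11a, at distances of 0.13, 0.19 and 0.19 log2 units. For Fam171b they were the kinase gene Camk2a, at 0.02 and with signals of only 16.9 and 16.1 with LIF, against 76.4 and 59.2 without LIF, then Cyria and Dmkn. For Ccdc136 they were the mannosidase gene Man2b2 (0.13), the synaptonemal complex gene Sycp2 (0.21) and Gramd1c (0.26), and for Ptpn13 the guanylate-binding protein gene Gbp3 (0.09), Katnal2 (0.18) and Fgd2 (0.22). Of the other members, Fam171b lay at 0.26 from Cachd1, with 9 tested genes nearer, and Ccdc136 at 0.27, with 11 nearer. The widest gap among the members was 0.55, between Fam171b and Ptpn13. The members were chosen for rises on these same arrays, so their nearness to each other was in part fixed by that choice. With 4 arrays these distances describe the pattern and no more.

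Genes related to the 4 members by family or partnership were taken from 6 lists, with the chromosomal neighbours as a seventh group. Over these, 107 genes had a probe set and 95 passed the filter. In limma 0 of the 95 had an adjusted p of 0.05 or less, against 0.145% of all 14445 tested genes, and 19 had an unadjusted p of 0.05 or less, against 10.9% of all tested genes. In limma with a common median per array, 4 of the 95 had an adjusted p of 0.05 or less, when 131 of all 14445 tested genes did. With an array left out, 1 group holds a single array, and those calls are not listed here. None of the differences in the paragraphs that follow passed over all genes, so they are given as values. The lists were chosen with earlier results of these data known, so their shares beside those of all tested genes are a description.

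Genes named as subunits of voltage-gated calcium channels, to whose auxiliary subunits Cachd1 is related, were dim and in most cases read higher without LIF. Of 26 genes 24 had a probe set and 20 were tested, and none of the 20 read above 240.4 on any array. Both arrays without LIF lay above both arrays with LIF for 14 of the 20, against 27.3% of all tested genes, and below them for 1, against 15.2%, and the groups overlapped for 5. At least 2-fold with the groups apart, 8 were higher and 0 lower, against 7.36% and 2.12% of all tested genes. With quantile normalization or a common median 5 were higher, against 4.38% and 3.93% of all tested genes. Without array 2 without LIF 13 were higher and 0 lower, when the shares over all tested genes were also larger, at 13.4% and 3.98%. Without array 1 without LIF 6 were higher and 1 lower, against 8.22% and 4.21%. The list median was 0.95 against 0.09 over all tested genes, and 0.64 with quantile normalization. At least 1 array lay below the filter in 8 of the 20, and in 4 of the 8 that were at least 2-fold higher. Cacna1g, Cacna1h and Cacna2d3 lay below it on both arrays with LIF, so they passed it through their higher group alone. The shares over all tested genes cover genes of any brightness, and median signal was highest on array 1 without LIF, at 95.5. The counts therefore describe the list and do not test it, and the low signals limit how far sizes can be read.

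Among single subunits, Cacna1b, the pore of N-type channels, read 37.9 and 33.6 with LIF, against 131.6 and 195.7 without LIF (limma log2 change 2.17, SE 0.46, adjusted p = 0.13). Cacna1g, a T-type pore, read 11.9 and 4.0 with LIF, both below the filter, against 94.8 and 72.1 without LIF (adjusted p = 0.19). The T-type gene Cacna1h read 21.9 and 21.5 with LIF, against 70.0 and 30.2 without LIF. Cacna2d1, an auxiliary subunit of the kind Cachd1 resembles, read 56.2 and 45.0 with LIF, against 176.1 and 155.6 without LIF on its brightest probe set (1.72, SE 0.41, limma adjusted p = 0.18). Of its 4 other probe sets 2 had the opposite sign, at -1.13 and -1.45. Cacna2d2 read 76.3 and 33.1 with LIF, against 113.2 and 40.1 without LIF, so its groups overlapped, and its log2 change, 0.42, was -0.33 without array 1 without LIF. Its 2 dimmer probe sets had 1.81 and 2.08. Cacng8, named as a gamma subunit, had a log2 change of 1.58 (SE 0.49, limma adjusted p = 0.30).

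Frizzled receptors, described as partners of the Cachd1 protein, had members with higher and members with lower signals. All 12 genes of that list were tested, and at least 2-fold with the groups apart 2 were higher and 2 lower, against 7.36% and 2.12% of all tested genes, with a median of 0.49. Without array 2 without LIF 7 were higher and 1 lower, against 13.4% and 3.98%, and the median was 1.04. Without array 1 with LIF 5 were higher and 2 lower, against 9.93% and 3.3%. Fzd5 read 1636.2 and 1823.1 with LIF, against 606.1 and 656.3 without LIF (log2 change -1.45, SE 0.19, limma adjusted p = 0.054). It passed at 0.05 under 7 of 13 alternatives, and its adjusted p ranged from 4.3e-04 to 0.29. Fzd7 read 1448.1 and 1148.0 with LIF, against 2736.3 and 3646.3 without LIF (1.29, SE 0.22, limma adjusted p = 0.084), and Fzd8 and Fzd2 had log2 changes of 1.38 and 1.45 (limma adjusted p = 0.35 and 0.46). Fzd2 read 630.7 on array 2 without LIF, below the 655.4 of array 1 with LIF. Besides Fzd5, the gene at least 2-fold lower was Fzd9, which read 60.1 and 91.2 with LIF, against 58.9 and 10.8 without LIF. Its log2 change of -1.55 (SE 0.88, limma adjusted p = 0.58) rested on array 2 without LIF, which lay below the filter. Between the arrays numbered 1 it differed by -0.03. The coreceptor gene Lrp6 had a log2 change of 0.04, with signals of 918.4 to 976.4.

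The other 2 genes of the Fam171b family did not separate by group. Fam171a1 read 87.9 and 98.0 with LIF, against 233.6 and 91.6 without LIF, and Fam171a2 105.6 and 98.4 with LIF, against 247.8 and 39.7 without LIF. In both, array 1 without LIF lay above the arrays with LIF, while array 2 without LIF lay between them for Fam171a1 and below them for Fam171a2. Their log2 changes were 0.66 (SE 0.51) and -0.04 (SE 0.80), and the signs were not stable, with -0.02 for Fam171a1 without array 1 without LIF and 1.28 for Fam171a2 without array 2 without LIF. The other 2 probe sets of Fam171a2, both dimmer, had -1.10 and -1.57. The difference between them and Fam171b was not tested.

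Of the non-receptor tyrosine phosphatases other than Ptpn13, 14 of 16 genes were tested. At least 2-fold with the groups apart, 3 were higher and 0 lower, against 7.36% and 2.12% of all tested genes. The number higher was also 3 with each array left out, when 8.22% to 13.4% of all tested genes were higher. They were Ptpn14, a FERM phosphatase like Ptpn13, with signals of 453.7 and 414.9 with LIF, against 906.6 and 1266.5 without LIF (1.30, SE 0.24, limma adjusted p = 0.10), Ptpn18 (1.85, SE 0.36, 0.12) and Ptpn20 (1.34, SE 0.36, 0.23). The dimmer probe sets of Ptpn14 had smaller changes, 0.78 with the groups apart and 0.37 with overlapping groups. The FERM phosphatases Ptpn3, Ptpn4 and Ptpn21 had log2 changes of 0.48, 0.09 and 0.16. Ptpn1, Ptpn2, Ptpn6 and Ptpn11 are known for acting on JAK and STAT proteins or on LIF receptor signalling. Ptpn2 read 4447.5 and 4657.6 with LIF, against 4199.7 and 4613.3 without LIF, and Ptpn11, which encodes Shp2, 1888.2 and 1766.9 with LIF, against 1802.1 and 1854.7 without LIF. Ptpn1 and Ptpn6 had log2 changes of -0.04 (SE 0.33) and -0.31 (SE 0.30), and the groups overlapped on the brightest probe sets of all 4. On dimmer probe sets the groups lay apart for Ptpn1, at 0.45, and for Ptpn2, at -0.13. The list median, 0.24, was -0.06 with a common median.

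Of 17 proteins reported to bind the Ptpn13 protein or to be its substrates, 16 genes were tested. Efnb2, an ephrin-B ligand, read 812.0 and 388.1 with LIF, against 2753.6 and 3726.3 without LIF (2.51, SE 0.36, limma adjusted p = 0.060), and its 4 probe sets all read higher, by 1.42 to 2.51. It passed at 0.05 under 5 of 13 alternatives, and its adjusted p ranged from 4.4e-04 to 0.29. Plekha1, an adaptor bound by the PDZ domains, read 1549.3 and 1268.0 with LIF, against 2836.2 and 3052.1 without LIF (1.07, SE 0.19, limma adjusted p = 0.092). These were the 2 members of the list that were at least 2-fold higher with the groups apart, against 7.36% of all tested genes, and 1 was with a common median, against 3.93%. Efnb1 had 0.87 (SE 0.30) and Stat6 -0.47 (SE 0.23), with limma adjusted p = 0.36 and 0.52. The list median was 0.08, and -0.21 with a common median, close to that of all tested genes on either scale.

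Of 16 acrosome genes 12 were tested. At least 2-fold higher with the groups apart was 1, a share near the 7.36% of all tested genes. This was Spaca1, with signals of 29.2 and 19.1 with LIF, against 53.3 and 129.8 without LIF (1.82, SE 0.67, limma adjusted p = 0.39). With quantile normalization 1 was higher and 1 lower, against 4.38% and 3.12% of all tested genes. Acrbp had 0.74 (SE 0.34), Agfg1 -0.48 (SE 0.20) and Zpbp2 -1.39 (SE 1.04), with limma adjusted p = 0.49, 0.45 and 0.69. The list median, -0.10, had no settled sign, being 0.18 without array 2 with LIF and 0.16 without array 2 without LIF.

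**Figure D3:**
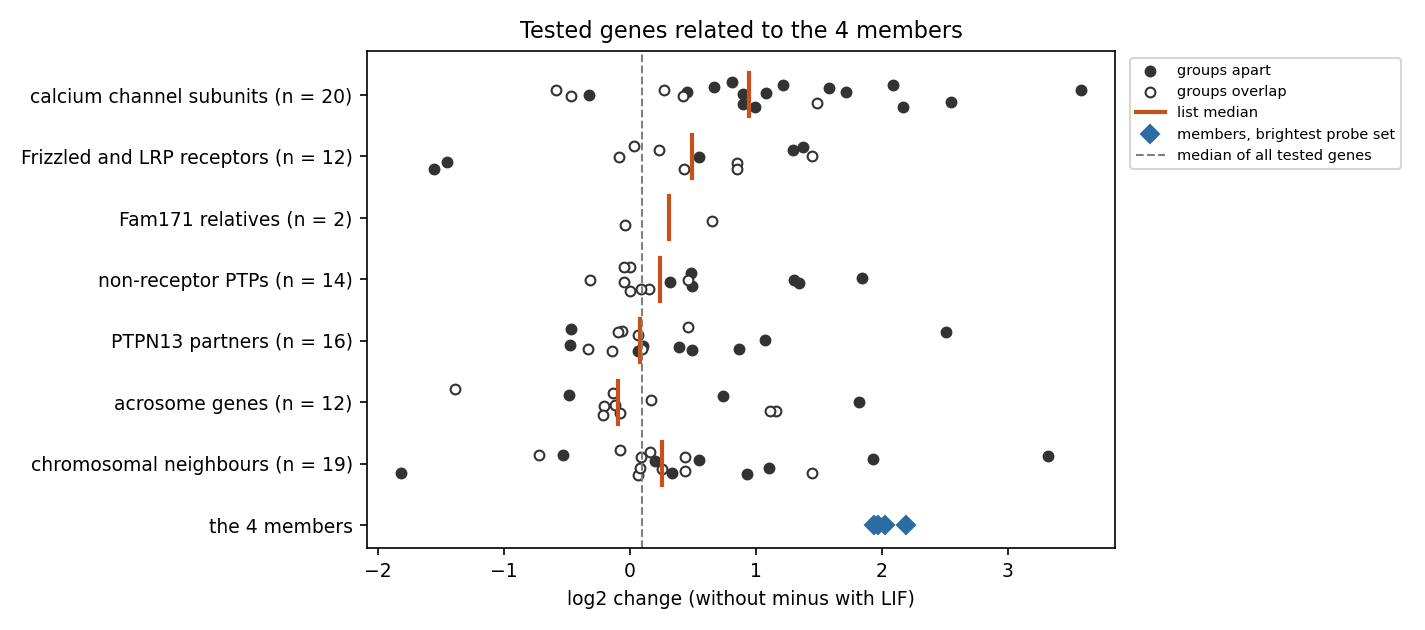
Log2 change without minus with LIF of each tested gene in the 7 groups of related genes and of the 4 members (diamonds), with filled points where the groups lay apart, bars at each median and a dashed line at the median of all tested genes, 0.09. The calcium channel list has its median at 0.95 and the other 6 between -0.10 and 0.49.

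The 3 nearest protein-coding genes on either side of each member in the RefSeq gene table gave 24 neighbours, of which 21 had a probe set and 19 were tested. At least 2-fold with the groups apart 3 were higher and 1 lower, against 7.36% and 2.12% of all tested genes. With quantile normalization and with a common median 2 were higher, against 4.38% and 3.93% of all tested genes. The number lower was 1 on either scale, against 3.12% and 4.06%. Beside Cachd1, the receptor kinase gene Ror1 read 75.3 and 39.4 with LIF, against 296.0 and 146.3 without LIF (1.93, SE 0.52, limma adjusted p = 0.24), and its other probe sets had 0.80 and 0.15. On the other side Jak1, the kinase of the LIF receptor, read 802.9 and 403.6 with LIF, against 1004.2 and 401.2 without LIF, so its groups overlapped. Next to Jak1, the adenylate kinase gene Ak4 read 4338.8 and 5391.4 with LIF, against 988.1 and 1917.2 without LIF, a difference that did not pass over all genes (-1.81, SE 0.32, limma adjusted p = 0.089). It passed at 0.05 under 4 of 13 alternatives, among them without either array without LIF, and its adjusted p ranged from 1.2e-04 to 0.34. Of its 4 other probe sets 3 had -1.75, -1.84 and -2.61, and the fourth, at signals of 4.1 to 23.5, had -0.10. Pgm1 had 0.55, Ube2u lay below the filter, and Raver2 was not analysed here.

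Beside Ccdc136, the filamin gene Flnc had the largest difference of the tested neighbours on their brightest probe sets. It read 113.2 and 13.3 with LIF, against 457.7 and 328.8 without LIF (3.32, SE 0.91, limma adjusted p = 0.24), and its other probe set had 3.55. It passed at 0.05 under 4 of 13 alternatives, with an adjusted p of 0.015 without array 1 with LIF and 0.035 without array 2 without LIF, in a range of 0.0038 to 0.43. The size is uncertain, since array 2 with LIF lay below the filter, and the change was 2.02 between the arrays numbered 1 and 4.63 between those numbered 2. The opsin gene Opn1sw, on the other side of Ccdc136, had -0.53, Calu 0.09, Fam71f1 0.44 and Atp6v1f 0.08. Beside Fam171b, the integrin gene Itgav had 0.34, Zc3h15 -0.08, Zswim2 0.44 and Tfpi -0.72, and Calcrl lay below the filter. Beside Ptpn13, the kinase gene Mapk10 had 1.45 with overlapping groups, Arhgap24 0.93, Wdfy3 0.20, Slc10a6 0.26, 1700016H13Rik 1.10 and Aff1 0.07. A dimmer probe set of Mapk10 read 2.9 and 15.8 with LIF, both below the filter, against 162.0 and 206.6 without LIF (log2 change 4.76), and another had 0.89. 1700016H13Rik was the remaining neighbour at least 2-fold higher with the groups apart, at signals of 14.6 to 40.2. The median of the tested neighbours was 0.26, and -0.04 with a common median.

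**Figure D4:**
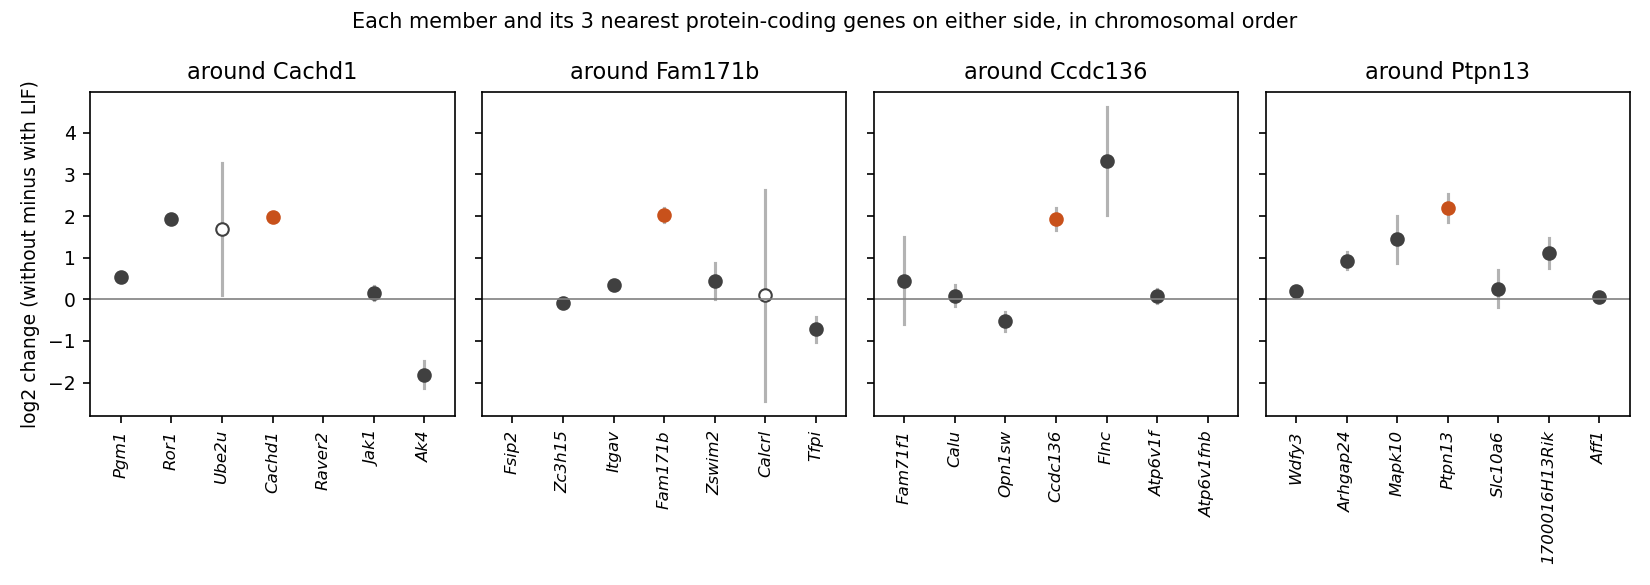
Log2 change without minus with LIF of each member (coloured) and its 3 nearest protein-coding genes on either side, in chromosomal order, with grey lines spanning the values within the arrays numbered 1 and 2, open points for genes below the filter and gaps for genes not analysed. Ror1, at 1.93, and Flnc, at 3.32, stand beside Cachd1 and Ccdc136, while Ak4 is at -1.81 and no tested neighbour of Fam171b exceeds 0.44.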

How the data were processed

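The authors deposited 1 table of MAS5 signal intensities on a linear scale for 4 arrays, 1 column per array, per the submitters' processing notes. The version of MAS5 is not given in the sources used here. After trimming 2% of probe sets at either end, each array averaged a signal of 500.0, so arrays were scaled to a common mean, which leaves dim signals unaligned. Labelling started from 100 ng of total RNA, per the labels' protocols.

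Of 45101 probe sets the platform annotation gave 1 symbol to 34945, several to 932 and none to 9160, beside 64 controls, and these last 3 kinds were left out. Entrez identifiers of 34741 matched RefSeq (GRCm38.p6), from which names and gene order were taken. The probe set brightest on average over the 4 arrays (log2 scale) stood for its gene, which was tested when that mean lay above the 30th percentile, a signal of 22.9. All 4 members passed. Their brightest probe sets read 227.0 to 525.2 on the arrays with LIF, so none passed through its higher group alone. The value at 0 was set to 0.1.

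limma 3.58.1 in R 4.3.3 (lmFit, eBayes with a mean-variance trend, only the group in the model, leaving 2 residual degrees of freedom; two-sided) was run over 14445 genes with Benjamini-Hochberg adjustment at 0.05, and tested on simulated data. SE is limma's for tested genes and that of the difference of 2 means of 2 log2 signals for members. Size calls required a log2 change of at least 1 and groups that did not overlap. The members and lists were chosen with earlier results of these data known. Named genes were all members and neighbours, up to 4 genes per list with the smallest p, the 3 nearest patterns per member and, whatever their values, Ptpn1, Ptpn2, Ptpn6, Ptpn11, Cacna2d1, Cacna2d2, Cacna1g, Cacna1h, Cacna1i, Fam171a1 and Fam171a2; Cacna1i was not analysed here. The FERM phosphatases Ptpn4 and Ptpn21, and Lrp6, Fzd9 and Cacna2d3, were named after their values were seen. Alternatives were quantile normalization, a common median, a pseudocount of 14.3, other filters, the mean of probe sets, other variance models, an adjusted p of 0.1, the replicate number as a block and leaving out each array. The number of arrays limits the precision. Plots used Python 3.11.15 and matplotlib 3.10.9.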

Additional observations from a re-analysis of the deposited data

How the results depend on the processing

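The selection of the 4 members fixed the direction of their changes. With a common median they were 1.68 for Cachd1, 1.73 for Fam171b and 1.64 for Ccdc136, and the mean of both Ptpn13 probe sets gave 1.52. With each array left out they ranged from 1.78 to 2.17 for Cachd1, 1.84 to 2.21 for Fam171b, 1.73 to 2.15 for Ccdc136 and 1.86 to 2.53 for Ptpn13. The brightest plain probe set could not be used for Ptpn13, which has none.

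Over all genes 21 passed in limma. The count was 10 with quantile normalization, 131 with a common median, 40 with a pseudocount, 41 with a filter at the 50th percentile, 12 with the mean of probe sets, 0 without the mean-variance trend, 52 with robust eBayes and 140 at an adjusted p of 0.1, and 7 to 496 with each array left out. Of the related genes 0 passed, with 4 under a common median, 1 each with a pseudocount, a filter at the 50th percentile and robust eBayes, 5 at an adjusted p of 0.1 and 0 to 10 with each array left out. The cause was not tested.

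A replicate block in the model gave 975 passing genes (596 higher, 379 lower), among them 14 related genes (11 higher, 3 lower). Higher were Cacna1b, Cacna2d1, Fzd2, Fzd7, Ptpn14, Ptpn18, Ptpn20, Efnb2, Plekha1, Ror1 and Flnc, and lower were Fzd5, Ak4 and Tfpi. The deviations of same-numbered arrays from their group means correlated at 0.29 across genes. With 2 pairs the arrays share only a number as far as the labels go. Each number holds 1 array of either group, so the block cannot move the estimated differences themselves.

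The median of the calcium channel subunits was 0.64 with quantile normalization, 0.65 with a common median and 0.70 to 1.13 with each array left out. That of Frizzled and LRP genes was 0.12 to 1.04, and that of Fam171 relatives -0.69 to 1.31, with each array left out. For non-receptor phosphatases it was 0.076 with quantile normalization, -0.056 with a common median and 0.18 to 0.37 with each array left out. For Ptpn13 partners it was -0.21 with a common median, and for neighbours -0.038, with 0.091 to 0.43 when each array was left out. For acrosome genes it was -0.39 with a common median, 0.049 with a pseudocount, 0.045 without a filter and -0.18 to 0.18 with each array left out.

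With 2 arrays per group and 1 table of summarised signals, detection calls and probe-level signals over background were not used here. Dim genes near the filter, which include most of the calcium channel list, have uncertain sizes.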
